A study of Mus musculus with 9 samples.

Results

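The MYC, MAX and MXD network was taken as 9 genes, Myc, Mycn, Max, Mxd1, Mxd3, Mxd4, Mxi1, Mnt and Mlx, whose probes were found by gene symbol in the platform's annotation. All 9 were on the array, by 13 of its 25697 probes, among 16593 named genes. Expression was measured in SVR cells, a mouse angiosarcoma line of transformed endothelial cells, grown to confluence and either sham-treated or given propranolol, a beta blocker that acts on beta 1 and beta 2 adrenergic receptors. The labels give 50 µM propranolol for 4 h or for 24 h and 0 h for sham, whereas the study's methods name a higher dose and 24 h for both treatments, so the dose and the time of the sham cells were not settled. Each of the 3 groups (sham, propranolol 4 h, propranolol 24 h) had 3 arrays, hybridized from pools of 3 biological replicates, so that the p-values below reflect array-to-array variation alone, possibly technical. All groups are 1 cell line in monolayer.

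The MYC proteins switch on genes of growth and metabolism once they pair with MAX, and the pair binds the DNA letters CACGTG, known as the E-box. MAX pairs in the same way with the MXD proteins, with MXI1 and with MNT, and those pairs sit on the same letters and hold genes down through the SIN3 corepressor. MLX is the parallel partner, which pairs with MNT, with some of the MXD proteins and with the glucose-sensing proteins MLXIP and MLXIPL, and in endothelial cells MYC is known for driving growth and metabolism when vessels sprout.

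The E-box itself is found at several of these genes. RefSeq promoter windows (build GRCm38.p6, 250 bases before to 50 after the start of a transcript) were matched by symbol for 8 of the 9 members, all but Myc, as 10 windows, and CACGTG, which reads the same on both strands, was the only motif searched. It was present in windows of 4 of the 8 genes, Max, Mxd4, Mnt and Mlx, against 7.15% of all 32851 windows and 8.09% of all genes. A match describes letters and not binding. The windows of the tested members that hold it are shown because these letters are what the network's own proteins bind, with the E-box in capitals, each 5′ to 3′ on the strand of the gene. The Max window lies at chr12:76962199-76962498 on the minus strand, with the first base of the E-box 3 bases before the start. The Mxd4 window lies at chr5:34187661-34187960 on the minus strand, with the E-box 219 bases before the start. The Mnt window lies at chr11:74830674-74830973 on the plus strand, with the E-box 123 bases before the start.
Max: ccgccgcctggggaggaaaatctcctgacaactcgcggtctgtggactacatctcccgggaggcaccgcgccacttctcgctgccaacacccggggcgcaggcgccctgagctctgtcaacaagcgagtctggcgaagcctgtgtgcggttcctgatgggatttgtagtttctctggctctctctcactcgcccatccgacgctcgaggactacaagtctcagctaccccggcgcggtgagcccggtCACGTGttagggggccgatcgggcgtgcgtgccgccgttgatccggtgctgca
Mxd4: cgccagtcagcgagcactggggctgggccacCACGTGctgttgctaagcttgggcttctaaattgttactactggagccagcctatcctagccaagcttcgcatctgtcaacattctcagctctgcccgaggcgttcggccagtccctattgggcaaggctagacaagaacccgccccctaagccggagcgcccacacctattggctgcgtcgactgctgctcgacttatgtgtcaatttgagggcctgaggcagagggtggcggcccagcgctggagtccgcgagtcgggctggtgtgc
Mnt: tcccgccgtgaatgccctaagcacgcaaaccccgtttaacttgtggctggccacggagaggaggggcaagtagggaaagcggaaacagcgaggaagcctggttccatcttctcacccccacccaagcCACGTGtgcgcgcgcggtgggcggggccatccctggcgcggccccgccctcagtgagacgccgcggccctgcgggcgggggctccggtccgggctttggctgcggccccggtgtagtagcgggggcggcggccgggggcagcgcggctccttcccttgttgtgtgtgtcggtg

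Whether a member could be compared at all depended on its signal, the mean brightness of a probe's beads on an array. The lowest signal called detected (detection p under 0.05 against the array's negative controls) was between 89.7 and 104 on the 9 arrays, and 11454 to 12245 probes were detected on each. To be tested, a probe had to be detected on every array of 1 group or more, and 7 of the 13 probes met this, for 5 of the 9 genes, Myc, Max, Mxd3, Mxd4 and Mnt, among 7969 named genes tested. Of the 7 tested probes, 6 never passed a signal of 191 on any array. At such signals the size of a fold change depended on how background was removed, so changes are given on the log2 scale after background correction and, where it matters, without it. The plot of signal over the detection limit shows this for every probe.

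**Figure D1:**
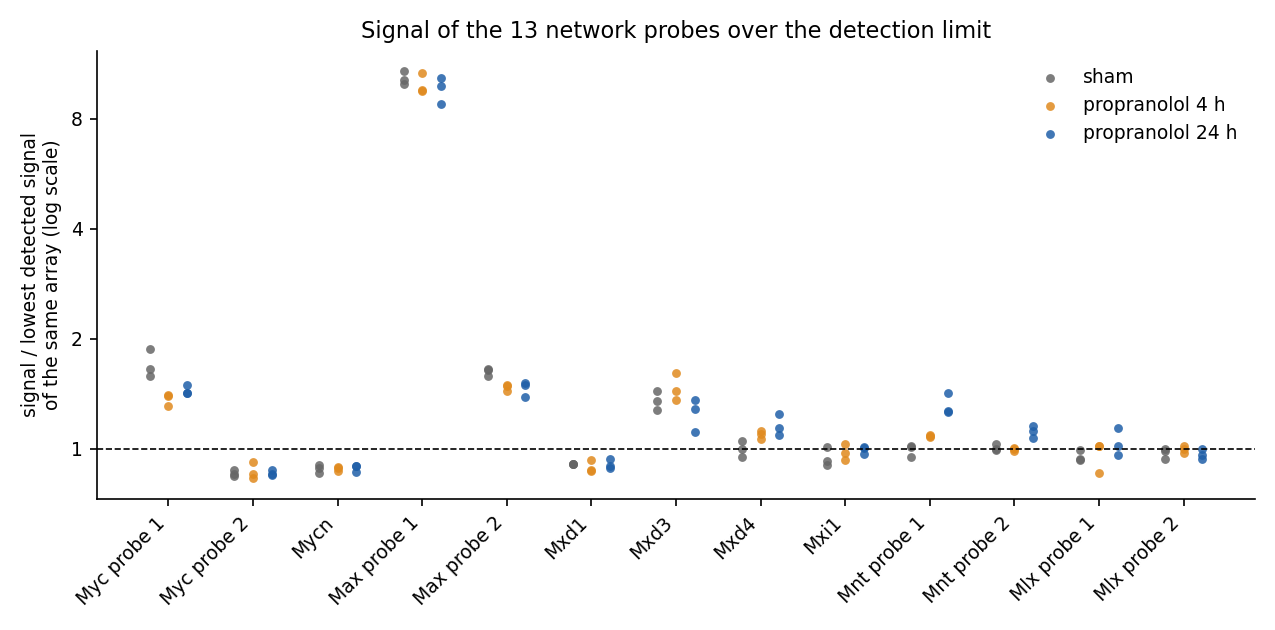
Signal of each of the 13 network probes divided by the lowest detected signal of the same array, on a log2 axis, with 1 point per array, coloured by group (3 arrays each), and the dashed line at the detection limit. Probe 1 of Max lies far above the line on all 9 arrays, while Mycn, Mxd1 and probe 2 of Myc lie below it on all 9; probes differ in how brightly they bind, so each is read on its own.

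Among the activators, Myc fell at both times. Myc encodes the main MYC protein of proliferating cells. On probe 1 its signal was 165, 148 and 191 on the 3 sham arrays, 142, 122 and 135 at 4 h and 144, 136 and 129 at 24 h, detected on all 9 arrays. Before scaling, all 6 propranolol arrays lay below all 3 sham arrays, and the 2 propranolol groups overlapped. After normalization the level was 6.57 ± 0.19 on the log2 scale in sham, 5.96 ± 0.08 at 4 h and 5.98 ± 0.08 at 24 h (SD, n = 3 arrays). Against sham, Myc changed by -0.61 at 4 h (SE 0.10, limma adjusted p = 0.0018, 0.656 times sham) and by -0.59 at 24 h (SE 0.10, limma adjusted p = 4.1e-04, 0.665 times sham). The 2 comparisons share the sham arrays. Between 4 h and 24 h the difference was 0.02 (limma adjusted p = 0.88, 95% interval -0.20 to 0.23).

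A gene was called where its adjusted p was under 0.05 and its change at least 1.5-fold, and Myc lay at that limit. Among all tested genes, 2.01% were called lower at 4 h and 11.1% at 24 h, so a call at 24 h was common. Without background correction the Myc change was -0.28 at both times (1.22-fold at 4 h and 1.21-fold at 24 h), under the fold limit, with limma adjusted p = 4.4e-04 and 1.4e-04. The call at 24 h was lost without sham array 2 (-0.57), sham array 3 (-0.51) or 24 h array 2 (-0.55), and the call at 4 h without sham array 3 (-0.52) or 4 h array 2 (-0.57), while the limma adjusted p did not exceed 0.0025 at 24 h or 0.0096 at 4 h when any 1 array was left out. Probe 2 of Myc was detected on no array, with signals from 77.7 to 87.8, so it neither repeats nor contradicts probe 1.

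Mycn, the MYC gene better known from neural and embryonic tissue, was not detected on any array. Its signals were 91.9, 81.1 and 87.3 in sham, 90.1, 82.5 and 84.1 at 4 h and 83.5, 85.7 and 81.5 at 24 h. These overlapped and all lay under the detection limit of their array, so no change could be measured.

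Max, the shared partner of the MYC and MXD proteins, did not pass the test on its brighter probe. Probe 1 of Max had signals of 1062, 892 and 1103 in sham, 1077, 890 and 926 at 4 h and 951, 985 and 801 at 24 h, and the groups overlapped. Its change was 0.01 at 4 h (limma adjusted p = 0.91) and -0.04 at 24 h (SE 0.06, limma adjusted p = 0.63), with a 95% interval of -0.18 to 0.11 at 24 h, which leaves out a 1.5-fold change in either direction. The change of probe 1 at 24 h ranged down to -0.19, with 75th percentile scaling, and 1 of 9 alternative limma fits gave an adjusted p under 0.05 (0.0029). Probe 2 of Max had signals of 172, 142 and 168 in sham, 151, 134 and 144 at 4 h and 146, 132 and 136 at 24 h. The difference on probe 2 was -0.28 at 4 h (limma adjusted p = 0.040) and -0.45 at 24 h (SE 0.09, limma adjusted p = 0.0012, 1.36-fold lower), under the fold limit at both times. The 95% interval of probe 2 at 24 h, -0.64 to -0.26, did not overlap that of probe 1, so the 2 probes of Max disagreed in size. Which transcripts each probe reads was not tested.

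**Figure D2:**
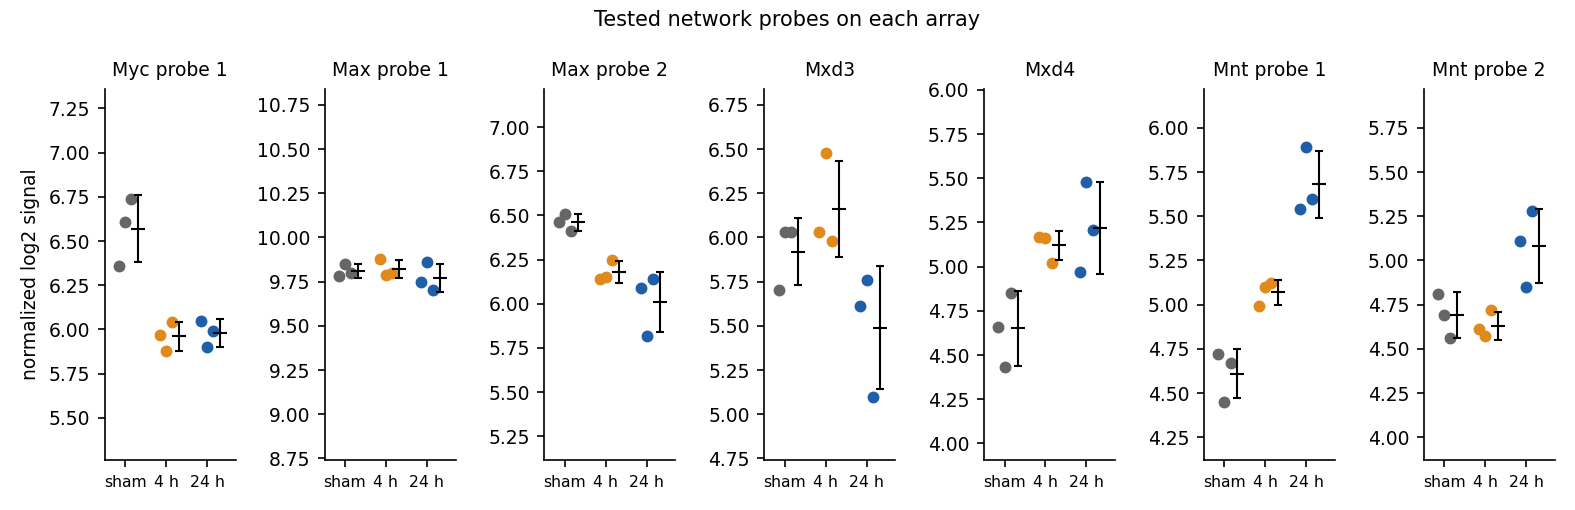
Background-corrected, quantile-normalized log2 signal of the 7 tested network probes on each array (points, 3 per group, sham, propranolol 4 h and propranolol 24 h), with the group mean and SD beside them as a bar; every panel spans the same log2 range around its own centre. For Myc the 6 propranolol arrays (5.88 to 6.05) lie below the 3 sham arrays (6.36 to 6.74), and for probe 1 of Mnt the groups separate in the order sham, 4 h, 24 h.

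Among the repressors, Mnt rose at 24 h. Mnt encodes the broadly expressed MAX partner that opposes MYC in growing and resting cells alike. On probe 1 its signal was 105, 85.4 and 104 in sham, 109, 101 and 106 at 4 h and 122, 136 and 115 at 24 h. All 24 h arrays lay above all other arrays, and 2 of the 3 sham arrays were detected against all 6 propranolol arrays, so that probe 1 entered the test through the propranolol groups. The normalized level was 4.61 ± 0.14 in sham, 5.07 ± 0.07 at 4 h and 5.68 ± 0.19 at 24 h (log2, SD, n = 3 arrays). Against sham it changed by 1.06 at 24 h (SE 0.10, limma adjusted p = 1.1e-05, 2.09-fold higher), where 13.6% of all tested genes were called higher.

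At 4 h the Mnt difference was 0.46 (SE 0.10, limma adjusted p = 0.011, but 0.065 without background correction), under the fold limit, where 2.05% of genes were called higher. From 4 h to 24 h it rose by 0.60 (SE 0.10, limma adjusted p = 7.0e-04, 1.52-fold), where 10.6% of genes were called higher. The call at 24 h against sham held without each array in turn (0.94 to 1.12), while that between 4 h and 24 h was lost without 4 h array 1 (0.56) or 24 h array 2 (0.49). Because probe 1 entered the test through the groups in which it was higher, the call that held adds no support. Without background correction the 24 h change against sham was 0.32 (1.24-fold, limma adjusted p = 1.5e-05), under the fold limit.

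Probe 2 of Mnt had signals of 107, 89.7 and 101 in sham, 101, 91.5 and 97.6 at 4 h and 108, 102 and 105 at 24 h. In raw signal the sham and 24 h arrays of probe 2 overlapped, and after normalization they did not. Its change was -0.06 at 4 h (limma adjusted p = 0.75) and 0.39 at 24 h (SE 0.11, limma adjusted p = 0.0099), with an interval of 0.15 to 0.63 that lay below the 0.83 to 1.29 of probe 1. Probe 2 was detected on 1 of 3 sham arrays, 2 of 3 at 4 h and 3 of 3 at 24 h, so it entered the test only through the group in which it was highest and adds no support to probe 1, from which it differed in size.

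Mxd4, an MXD family member found in cells that leave the cycle, lay above sham after normalization, near the detection limit and under the fold limit. Its signal was 104, 85.0 and 107 in sham, 113, 102 and 103 at 4 h and 105, 119 and 104 at 24 h, detected on 1 of 3 sham arrays and on all 6 propranolol arrays, so it entered the test only through the groups in which it was higher. In raw signal the groups overlapped, and after normalization the 3 sham arrays (4.43 to 4.85) lay below the 6 propranolol arrays (4.97 to 5.48). The difference from sham was 0.47 at 4 h (SE 0.14, limma adjusted p = 0.032) and 0.57 at 24 h (SE 0.14, limma adjusted p = 0.0043), measured against sham arrays mostly not above background. At 4 h the limma adjusted p was 0.070 without background correction (0.13) and 0.051 to 0.10 without sham array 1 or 2 or any 1 of the 4 h arrays, and at 24 h it was 0.11 with 75th percentile scaling (0.10). The fold limit was passed at 24 h when sham array 3 (0.67) or 24 h array 1 (0.69) was left out. Between 4 h and 24 h Mxd4 differed by 0.10 (limma adjusted p = 0.55, 95% interval -0.20 to 0.40).

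Mxd3, the MXD member known from cells in S phase, was lower at 24 h than at 4 h. Its signal was 133, 121 and 147 in sham, 145, 150 and 132 at 4 h and 124, 130 and 101 at 24 h, detected on all 9 arrays. The lowest value, 101, came from 24 h array 3, the only array on the second BeadChip (the glass slide that carries several arrays). Mxd3 fell by 0.67 on the log2 scale from 4 h to 24 h (SE 0.18, limma adjusted p = 0.011, 1.59-fold), where 7.40% of genes were called lower. Without 24 h array 3 the change was -0.48 (limma adjusted p = 0.036) and without 4 h array 2 it was -0.52 (limma adjusted p = 0.042), and neither passed the fold limit. Against sham, Mxd3 did not pass the test, with 0.24 at 4 h (limma adjusted p = 0.38) and -0.43 at 24 h (SE 0.18, limma adjusted p = 0.065), or -0.23 at 24 h without array 3. The 24 h result depended on the processing, since 4 of 9 alternative limma fits gave an adjusted p under 0.05 (lowest 0.012), all under the fold limit.

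Mxd1 and Mxi1, the other MXD repressors, and Mlx could not be tested. Mxd1, which rises as many cell types differentiate, was detected on no array, with signals from 81.3 to 94.3. Mxi1 had signals from 90.3 to 99.7 and was detected on 1 of 3 sham arrays, 1 of 3 arrays at 4 h and 2 of 3 at 24 h. The 2 Mlx probes had signals from 86.6 to 104 and from 87.3 to 102 and were detected on 4 and 3 of the 9 arrays. For Mlx probe 1 the highest signal, 104, was again 24 h array 3, and the other arrays of all 3 groups overlapped.

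Counted over the 5 tested members, 1 gene was called higher (Mnt) and 1 lower (Myc) at 24 h against sham, against 13.6% and 11.1% of all tested genes. At 4 h none was called higher and 1 lower (Myc), against 2.05% and 2.01%. At 24 h against 4 h, 1 was called higher (Mnt) and 1 lower (Mxd3), against 10.6% and 7.40%. By adjusted p alone, 3 of 5 passed at 24 h and 3 of 5 at 4 h (Myc, Mxd4 and Mnt each time), against 60.9% and 24.6% of all tested genes, and 2 of 5 passed between 4 h and 24 h against 54.9%. At 4 h only Myc passed without background correction, where Mxd4 had 0.070 and Mnt 0.065. Mxd4 and Mnt entered the test through the groups in which they were higher, so these shares support nothing about the members. The arrays of the 2 groups did not overlap for those same 3 genes at 24 h and at 4 h, against 66.4% and 42.2% of genes, and for 2 of 5 between 4 h and 24 h against 62.6%.

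**Figure D3:**
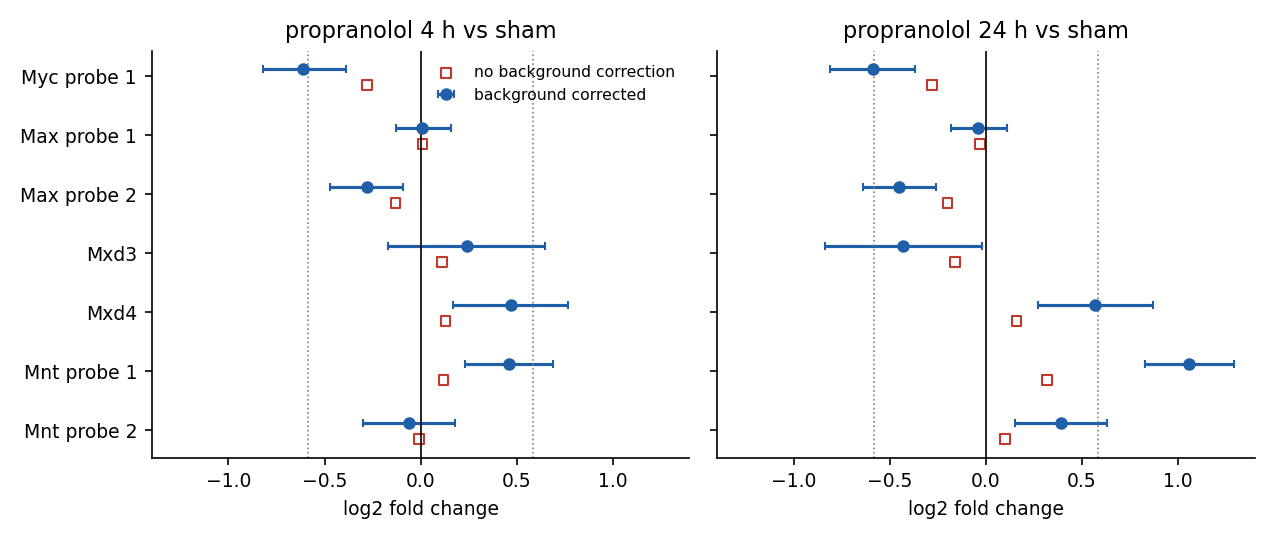
Log2 fold change of the 7 tested network probes against sham, at 4 h on the left and 24 h on the right, with filled points and 95% intervals after background correction and open squares without it; dotted lines mark a 1.5-fold change. Myc is lower at both times (-0.61 and -0.59) and probe 1 of Mnt is higher at 24 h (1.06), and every open square lies at or nearer to 0 than its filled point.

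Over the 9 arrays the normalized levels of Mxd4 and Mnt went together (Pearson r = 0.85), and both went against Myc (r = -0.80 for Mxd4 and -0.77 for Mnt). Max and Mxd3 had r = 0.60, and Mxd3 and Mnt r = -0.48. These 9 points are 3 groups of 3 arrays that share their normalization, so the values describe the groups and carry no test. Over all tested genes, those most like Myc were Ppm1b and Slco2a1 (r = 0.971 each) and Fam107b (r = 0.958), and those most opposed were Zfp653 (-0.982), Otx1 (-0.966) and Zfp532 (-0.962). The gene closest to Max was Vps45 (0.927), to Mxd3 Ppp2r5c (0.973), to Mxd4 Mark4 (0.962) and to Mnt Spsb2 (0.987).

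Genes that MYC is known to switch on for nucleolus and ribosome assembly were lower at 24 h almost throughout the list. Of 33 genes, 26 were tested, and 23 of them fell and none rose, where 11.1% of all tested genes were called lower and 13.6% higher, with 3 not called, a median of -0.95 against -0.02 for all tested genes and a range of -1.81 to -0.36. Ncl (nucleolin, a main nucleolar protein) fell from signals of 874 to 1154 in sham to 300 to 363 at 24 h (log2 -1.81, limma adjusted p = 2.1e-08). The genes Bop1 (-1.79), which matures the large ribosomal subunit, Rrp9 (-1.62), a part of the U3 particle, and Mrto4 (-1.52), a large subunit assembly factor, also fell. At 4 h, 6 of the 26 were called, all lower, against 2.01% of all tested genes, and the median was -0.40 against 0.01 for all genes. Among the 6 were Ddx21 (-1.01) and Nop56 (-0.67), named after their values were seen. Without background correction 17 were lower at 24 h and 3 at 4 h. This list and those that follow were chosen with earlier results of these data known, so their counts describe the genes and carry no test.

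The E-box was present in RefSeq windows of 5 of the 20 tested genes of that list that matched, 25% against 12.1% of all tested genes. The share was 25.9% of 27 matched tested genes of metabolism and the cell cycle, 27.3% of 11 repressed by MYC and 40% of 5 induced by MLX. It was 13.3% of 15 partners and cofactors and 8.33% of 12 genes for MYC protein turnover. These lists are described below. The windows of Imp4, which processes ribosomal RNA, and Nop2, which methylates it, hold the E-box before the start of the gene and are shown, as 30 bases on each side of it, beside the Max, Mxd4 and Mnt windows above. They lie at chr1:34439678-34439743 and chr6:125131793-125131858, both on the plus strand of GRCm38.p6, and were chosen after values were seen.
Imp4: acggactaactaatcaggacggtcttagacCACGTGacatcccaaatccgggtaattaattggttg
Nop2: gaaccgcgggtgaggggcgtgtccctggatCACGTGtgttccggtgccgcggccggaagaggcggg
At 24 h Imp4 (-0.85) and Nop2 (-1.13) both fell. All 26 tested genes of the list lay below 0 and 23 were called lower, so the fall was not particular to genes with the E-box. Any part of the E-box in it was not tested. In Grwd1 (-1.42), Mybbp1a (-0.99) and Pes1 (-0.58, not called) the E-box begins after the start.

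Of 42 MYC-induced genes of metabolism, translation, chaperones and the cell cycle, 33 were tested, and 17 fell, none rose and 16 were not called at 24 h, against 11.1% of all genes lower and 13.6% higher, with a median of -0.64 against -0.02. The largest falls were those of Slc19a1, the reduced folate carrier (-1.73), Srm, spermidine synthase (-1.63), Gart of purine synthesis (-1.60) and Shmt1 of serine and folate metabolism (-1.33). Srm signals went from 2309 to 3241 in sham to 869 to 908 at 24 h. Shmt1 was dimmer, with signals of 180 to 224 in sham and 120 to 138 at 24 h, and its change without background correction was -0.65. Cad, the first enzymes of pyrimidine synthesis, (-1.22) and Ccnd1, cyclin D1 (-0.74), fell as well, both named after their values were seen. The list did not move as 1, and 5 of the 33 lay above 0 at 24 h. Of these, E2f1 was 0.49 above sham (limma adjusted p = 7.6e-05), under the fold limit, while Odc1 (0.12) and Tfrc (0.09) did not pass by adjusted p. At 4 h, 2 of the 33 fell and none rose, against 2.01% of all tested genes lower and 2.05% higher.

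Genes known to be held down by MYC moved mostly the other way. Of 20, 15 were tested, and 9 rose, 2 fell and 4 were not called at 24 h, against 13.6% of all genes higher and 11.1% lower, with a median of 0.87 against -0.02. Gadd45a, a stress and DNA damage gene, rose from signals of 268 to 416 in sham to 1348 to 1578 (log2 2.40, limma adjusted p = 2.5e-08), Ndrg1 by 1.47 and Ddit3, which encodes the stress factor CHOP, by 1.34. Thbs1, which encodes the angiogenesis inhibitor thrombospondin-1, fell by 1.54, and Gadd45g was the other gene called lower. Signals of Thbs1 were 135 to 186 in sham and 101 to 106 at 24 h, and its change without background correction was -0.59. The cell cycle inhibitors Cdkn1a and Cdkn1b, named after their values were seen, each rose by 0.87 at 24 h, but Cdkn1b by 0.27 without background correction, under the fold limit. At 4 h, 2 of the 15 rose (Ddit3 by 1.56 and Gadd45a by 1.03) and 2 fell (Thbs1 at -1.20 and Gadd45b at -0.78). At that time 2.05% of all tested genes were called higher and 2.01% lower. Gadd45b then stood 1.26 above sham at 24 h, a difference of 2.04 between the times (limma adjusted p = 2.4e-08). Without background correction Thbs1 (-0.49) and Gadd45b (-0.27) were under the fold limit at 4 h, and Gadd45b was 0.65 above sham at 24 h and differed by 0.91 between the times.

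**Figure D4:**
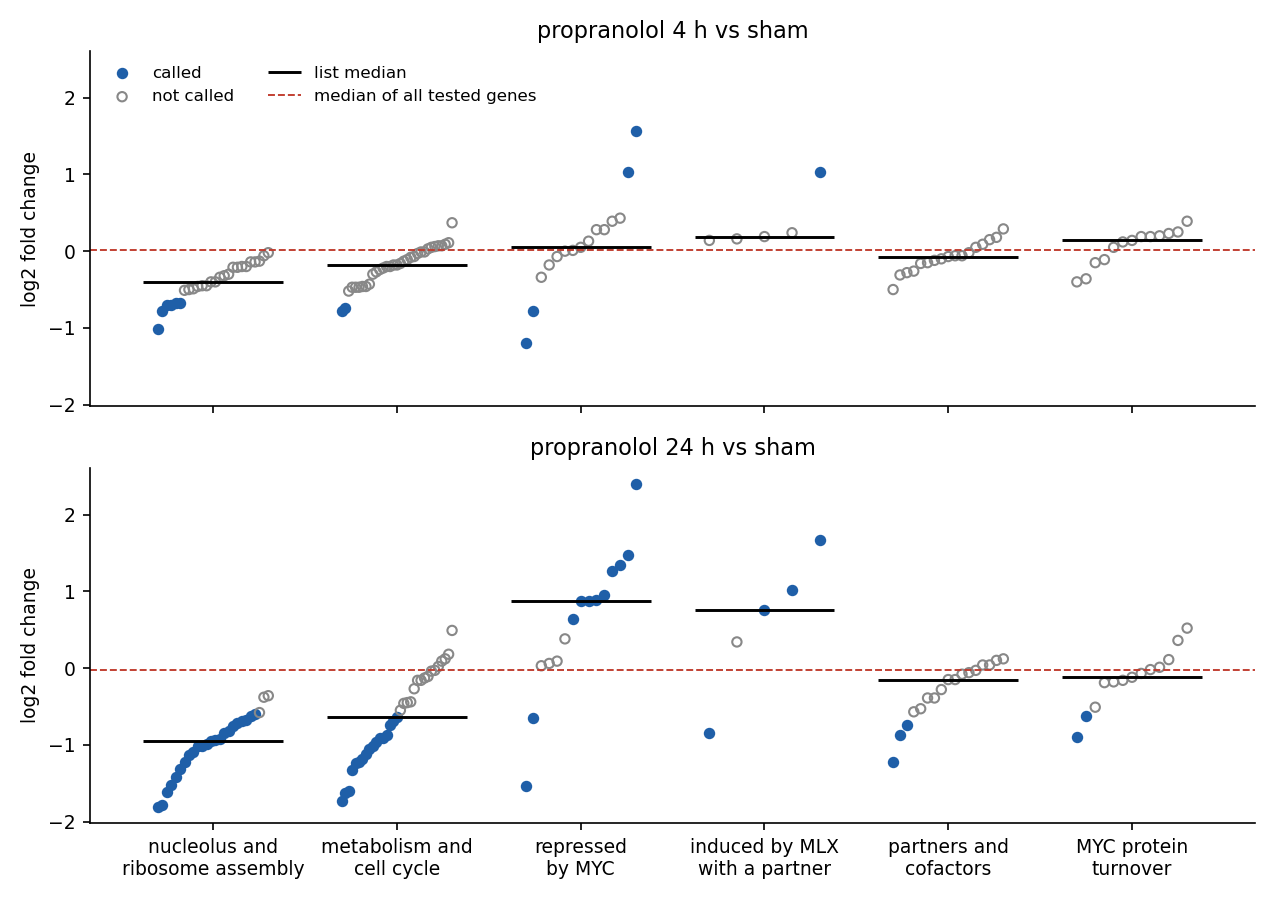
Log2 fold change of each tested gene of the 6 lists against sham, at 4 h above and 24 h below, sorted within each list, with filled points for called genes, a black bar at the list's median and a dashed line at the median of all tested genes. At 24 h the nucleolar list (median -0.95) lies wholly below 0 and the list of genes repressed by MYC (median 0.87) mostly above it.

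The remaining lists held fewer calls. Of 11 genes induced by MLX with MLXIP or MLXIPL, 5 were tested, and at 24 h Hbp1, a repressor of the cell cycle, rose by 1.67, Txnip, which limits glucose uptake, by 1.02 and Khk, which phosphorylates fructose, by 0.76, while Arrdc4, a relative of Txnip, fell by 0.85. Among all tested genes 13.6% were called higher and 11.1% lower at 24 h. Without background correction Khk (0.35) and Arrdc4 (-0.39) were under the fold limit. Of 21 partners and cofactors of the network proteins, 17 were tested, of which 3 were called, all lower (11.1% of all genes were): the ATPases Ruvbl2 (-1.23) and Ruvbl1 (-0.87) and the chromatin adaptor Wdr5 (-0.74), with a median of -0.15. Of 18 genes for MYC protein turnover, 13 were tested, of which 2 were called, both lower, again against 11.1%: the ubiquitin ligase subunit Skp2 (-0.90) and the kinase Aurka (-0.62), with a median of -0.12. Both counts are small and near that background. Without background correction Wdr5 (-0.46) and Aurka (-0.57) were under the fold limit, as was Aurka without sham array 3 or 24 h array 2 (-0.58 each). No gene of either list was called at 4 h.

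The measured RNA is that of whole cultures, so fewer cells of a kind and less RNA per cell cannot be told apart. Of 17 endothelial markers on the array, 13 were detected on all sham arrays and 14 at 24 h, and Sox17 on none. Their mean signal was 833 to 1113 in sham and 1721 to 1998 at 24 h, and 13 of 14 tested were called higher at 24 h, against 13.6% of all tested genes. The part of these markers in the network changes was not tested. Of 7 leukocyte markers 6, Ptprc, Itgam, Adgre1, Cd3e, Lyz2 and Cd74, were detected on no array, while Cd14 was detected on all 9 and called higher at 24 h. Of 10 fibroblast and mural markers 5 were detected on no array, 2 on all sham arrays, 4 on all 4 h arrays and 3 (Pdgfra, Des and Cspg4) on all 24 h arrays. Of these markers 4 were tested, and 1 was called lower and none higher at 24 h. Of 8 epithelial markers, 2 were detected on all sham arrays and 5 at 24 h, while their mean signal was 147 to 184 in sham and 111 to 124 at 24 h. Of 5 tested, 2 were called lower and none higher at 24 h. Among all tested genes 11.1% were called lower. On the first BeadChip the arrays of each group sit side by side, and a group cannot be told apart from its place on the slide.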

How the data were processed

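Total RNA was amplified, biotin-labelled, hybridized to Illumina mouse bead arrays and scanned by the authors. They deposited, per probe and array, the intensity (mean brightness of the beads, not normalized) and a detection p-value against negative controls. Also deposited by the authors were the standard error of the intensity over beads and the number of beads (other), and a second intensity table in which each array was multiplied by 1 constant. Of the scanner's software, neither name nor version is stated in what was read.

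The 9 arrays were grouped by their labels. Background was removed by normexp (its noise estimated from detection p-values), an offset of 16 was added, and values were quantile-normalized and put on the log2 scale (neqc, limma 3.58.1, R 4.3.3). One limma model over the 3 groups was fitted to 11653 tested probes with Benjamini-Hochberg adjustment. A gene was represented by its brightest tested probe. Named list genes were the 4 called genes of largest change at 24 h per list. Members and lists were chosen with earlier results of these data known. Replicate numbers did not pair the arrays. The fit was tested on simulated data. Alternatives were no background correction, offset 50, median centring, the authors' table, 75th percentile scaling, other detection filters, the mean of probes, blocks, a 2-fold limit, and leaving out arrays. The number of arrays limits the precision. Protein sequences were not used here.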

Additional observations from a re-analysis of the deposited data

Results flagged for a closer look

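Of the 5 tested network genes, Mnt and Mxd3 differed between the 4 h and 24 h arrays by limma's test of 24 h against 4 h with at least 1.5-fold. By that test 10.6% of all tested genes were called higher and 7.40% lower. Of the listed genes, many of which also passed that test, Gadd45b is given because it was called in opposite directions at the 2 times. Mnt was 0.60 higher on the log2 scale at 24 h (limma adjusted p = 7.0e-04, SE 0.10), with all 3 arrays at 24 h above all 3 at 4 h. Arrays of these 2 groups did not overlap for 62.6% of all tested genes. The Mnt call was lost without 4 h array 1 or 24 h array 2, and without background correction the difference was 0.19, under the fold limit. Mxd3 was lower at 24 h, with a log2 difference of -0.67 (limma adjusted p = 0.011, SE 0.18), again with no overlap of arrays, and the difference was -0.48 without the 24 h array on the second BeadChip. Gadd45b was called lower at 4 h (-0.78) and higher at 24 h (1.26), a difference of 2.04, and without background correction it was -0.27 at 4 h, under the fold limit, 0.65 at 24 h and 0.91 between the times. Both differences from sham of each gene are measured against the same sham arrays, and Mxd3 passed the test against sham at neither time in the fit reported here. By the labels sham was taken at 0 h only, so time in culture and propranolol cannot be told apart.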

How the results depend on the processing

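Size, more than direction, depended on the processing. With no background correction, with the second deposited table, with 75th percentile scaling and with offset 50, the number of network genes called was 0 in every comparison, although Myc and Mnt at 24 h and Myc at 4 h kept an adjusted p under 0.05 under all of these. Each of these leaves or adds a constant part in the signal, and whether this lowered the counts was not tested. Median centring gave 2 network genes higher and 0 lower at 24 h against sham and 0 lower at 24 h against 4 h. The mean of a gene's tested probes gave 0 higher at 24 h against 4 h, and an analysis of variance per probe and the BeadChip block gave 0 lower there. A 2-fold limit left 0 lower in each comparison, 0 higher at 24 h against 4 h, and 1 higher (Mnt) at 24 h against sham. With no fold limit, chosen after seeing the data, 2 were higher at 24 h and 2 at 4 h against sham. Leaving out 1 array at a time gave 1 to 2 network genes higher at 24 h against sham and 0 to 1 for each other nonzero count.

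For the lists at 24 h against sham, the 2-fold limit left 11 nucleolar and 10 metabolic genes lower, 4 MYC-repressed genes higher and 1 lower. The second deposited table gave 1 MYC-repressed gene lower, and no fold limit gave 1 metabolic gene higher. The remaining alternatives moved these list counts by under 1.5 times.

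Signs turned in 11 cases, none with an adjusted p under 0.05. Myc at 24 h against 4 h was -0.02 with 75th percentile scaling (0.02 as reported), and -0.02 to 0.06 with 1 array left out. Max at 4 h was -0.06 with median centring, -0.04 with the second deposited table, -0.05 with 75th percentile scaling and -0.13 with the mean of probes, and -0.01 to 0.03 with 1 array left out. Mxd4 at 24 h against 4 h was -0.02 with 75th percentile scaling and -0.03 to 0.23 with 1 array left out.

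Deviations of arrays that share a replicate number correlated between -0.022 and 0.006, so the numbers do not pair them. With a replicate block the network counts were unchanged, 1 higher and 1 lower at 24 h against sham, and Myc was -0.59 (limma adjusted p = 9.4e-04).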
